A study of Mus musculus with 19 samples.

Results

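Cholinergic interneurons are a small population of large, tonically active neurons in the striatum, and 7 genes that mark them or handle their transmitter were examined: Chat, Slc5a7, Slc18a3, Slc17a8, Lhx8, Gbx2 and Ache. The genes were chosen by name and matched by gene identifier, and all 7 were found among the 54232 genes counted. Of these 7 genes, 6 were well counted, which here means at least 10 reads in every mouse, and Gbx2 was not. RNA of the striatum was sequenced from 19 mice at 6 months of age on the C57/BL/6 background, from 7 WT mice and from 4 mice of each knock-in genotype, which are named KI-96, KI-571 and KI-FL. KI-FL mice are HD140Q knock-in mice that express full-length mutant Huntingtin. KI-96 and KI-571 carry a mutant Htt allele of that line cut short with CRISPR-Cas9. The allele codes for an N-terminal fragment that is shorter in KI-96 than in KI-571. By western blot, the study saw in either line a mutant Huntingtin band that matched the smallest one of KI-FL brain in size. Per the methods of the study the KI mice were heterozygous, so that they also carry a WT allele, and the truncated lines descend from founders made by injecting zygotes of the HD140Q line. The study asked how the form of mutant Huntingtin bears on the striatum, and each KI genotype is compared here with WT and with the other KI genotypes.

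Cholinergic interneurons make acetylcholine from choline and acetyl-CoA, load it into vesicles and release it onto projection neurons and other interneurons, where it acts on muscarinic and nicotinic receptors. Chat encodes choline acetyltransferase, the enzyme that makes acetylcholine. Slc5a7 encodes the high-affinity choline transporter that brings choline back into the terminal, and Slc18a3 encodes the vesicular acetylcholine transporter. Slc17a8 encodes the vesicular glutamate transporter VGLUT3, with which these cells can also release glutamate. Ache encodes acetylcholinesterase, which breaks acetylcholine down, and Lhx8 and Gbx2 encode homeodomain transcription factors with roles in the development of these neurons. Bulk tissue cannot tell fewer cells from less RNA per cell.

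Slc18a3 lies within Chat, an arrangement known as the cholinergic gene locus. On GRCm38, Chat (ENSMUSG00000021919.8) spans chr14:32408203-32465989 on the minus strand, and Slc18a3 (ENSMUSG00000100241.1) is a single exon at chr14:32462438-32464850 on the same strand. In 4 of the 8 annotated Chat transcripts Slc18a3 lies inside the first intron, and its start site is 1107 bases downstream of that of Chat in 3 of them. The exons of both genes share 0 bases. Reads from unspliced Chat RNA can still fall on Slc18a3, and their share was not tested. The other members lie on other chromosomes, with Lhx8 (ENSMUSG00000096225.7) at chr3:154306294-154330659 on the minus strand and Ache (ENSMUSG00000023328.14) at chr5:137287519-137294466 on the plus strand.

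**Figure D1:**
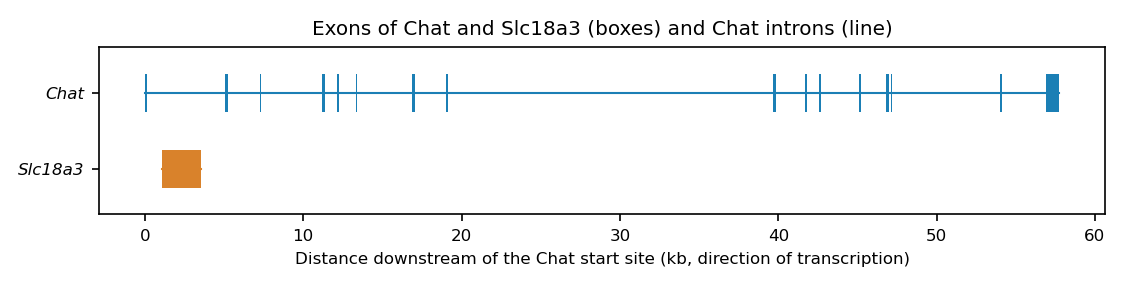
Map of the cholinergic gene locus, with the exons of the 16-exon Chat transcript and the single exon of Slc18a3 drawn as boxes against the distance in kb downstream of the Chat start site. Slc18a3 begins 1107 bases downstream of the Chat start and lies wholly inside the first intron.

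The promoter windows of the genes whose levels the results below turn on are shown from RefSeq on GRCm38.p6, each from 250 bases before to 50 bases after a start site, 5′ to 3′ on the gene's strand. Capitals mark matches on either strand to the motifs named after the sequences.
Chat, chr14:32465860-32466159, minus strand: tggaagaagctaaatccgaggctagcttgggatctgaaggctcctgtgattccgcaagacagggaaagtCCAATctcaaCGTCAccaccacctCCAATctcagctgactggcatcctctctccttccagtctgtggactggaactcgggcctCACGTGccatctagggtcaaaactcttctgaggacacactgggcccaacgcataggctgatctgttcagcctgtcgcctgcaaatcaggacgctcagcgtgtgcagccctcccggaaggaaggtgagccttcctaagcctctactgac
Slc18a3, chr14:32464801-32465100, minus strand: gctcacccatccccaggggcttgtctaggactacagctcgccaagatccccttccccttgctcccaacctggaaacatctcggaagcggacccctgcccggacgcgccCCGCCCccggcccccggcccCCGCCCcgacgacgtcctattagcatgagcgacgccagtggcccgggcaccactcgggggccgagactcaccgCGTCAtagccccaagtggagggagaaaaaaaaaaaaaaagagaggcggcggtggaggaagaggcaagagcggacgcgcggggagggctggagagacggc
Lhx8, chr3:154330511-154330810, minus strand: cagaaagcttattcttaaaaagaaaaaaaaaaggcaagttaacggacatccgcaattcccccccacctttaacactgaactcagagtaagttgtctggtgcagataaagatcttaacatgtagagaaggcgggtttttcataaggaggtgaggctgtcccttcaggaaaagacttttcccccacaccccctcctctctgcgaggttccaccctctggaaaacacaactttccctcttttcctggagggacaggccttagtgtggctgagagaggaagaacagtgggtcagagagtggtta
Ache, chr5:137288004-137288303, plus strand: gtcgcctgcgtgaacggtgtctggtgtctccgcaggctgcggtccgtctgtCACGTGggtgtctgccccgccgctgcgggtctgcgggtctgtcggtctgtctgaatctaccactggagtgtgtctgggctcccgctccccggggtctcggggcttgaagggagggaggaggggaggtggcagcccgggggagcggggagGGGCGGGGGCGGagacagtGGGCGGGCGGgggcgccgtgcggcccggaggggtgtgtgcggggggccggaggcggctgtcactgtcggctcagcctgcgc
The windows of the neighbouring Chat and Slc18a3 differed in makeup, with a GC content of 55.7% for Chat and 67% for Slc18a3, against a median of 52.7% over 32851 promoter windows. Both held the cAMP response motif TGACG, 171 bases before the Chat start and 49 bases before the Slc18a3 start, a motif found in 20.8% of all windows. The E-box CACGTG stood 98 bases before the Chat start and 199 bases before the Ache start, and 7.15% of all windows held it. The GC box GGGCGG was present at 2 places in the Slc18a3 window and at 4 in the Ache window, where matches overlap each other, and in 35.7% of all windows. The CCAAT box (CCAAT) was found at 2 places in the Chat window and in 37.4% of all windows. The Lhx8 window held 0 of the 7 motifs searched, which also included the homeodomain core TAATTA, the TATA box TATAAA and, for the repressor element of neuronal genes, its left part TTCAGCACC. The last 50 bases of the Ache window were not found in the GENCODE transcripts of that gene, so this start site rests on RefSeq alone.

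Between 12669809 and 26388542 reads per mouse fell on genes, and 18521 genes were counted well enough to be tested. Libraries of one genotype differed by more than counting error. A few libraries stood apart. In KI-FL replicate 4, 3186 tested genes were at 0 reads, against at most 222 in any other mouse. In KI-96 replicate 3, 24.2% of reads fell on no gene, against at most 16% in the others. In WT replicate 3 the summed level of 6 cortical marker genes was 1015 counts scaled to library size (CPM), against a WT median of 38.8. Several values that rest on these libraries are given with and without them, a setting added with their values in view. The targeted gene Htt was at 7.39 to 7.61 log2 CPM in WT, 7.16 to 7.91 in KI-96, 6.70 to 7.14 in KI-571 and 7.09 to 7.48 in KI-FL mice, and a count per gene does not separate its alleles. Xist was above 5 log2 CPM in all 4 KI-96 mice, 1 of 7 WT, 0 of 4 KI-571 and 1 of 4 KI-FL mice, and the labels give no sex, so that KI-96 genotype and Xist level can hardly be told apart.

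The 7 genes spanned a wide range of levels. Reads per kilobase of exon, scaled to library size (RPKM), allow genes to be compared, and over the 19 mice the mean RPKM was 23.8 for Ache, 8.08 for Slc5a7, 6.34 for Slc18a3, 6.19 for Chat, 4.52 for Lhx8, 3.84 for Slc17a8 and 0.276 for Gbx2. Ache was above Slc5a7 in 19 of 19 mice, and their ranges did not overlap. Slc5a7 was above Slc18a3 in 17 of 19 mice and Chat above Lhx8 in 17 of 19, with overlapping ranges. Slc18a3 was above Chat in 7 of 19 mice and Lhx8 above Slc17a8 in 11 of 19, so that neither pair was ordered beyond the spread between mice. Gbx2 lay below every other member in every mouse, with Slc17a8 above it in 19 of 19. The spread between mice also differed among members: the coefficient of variation of CPM was 15.3% for Chat, 16.4% for Ache and 17.5% for Slc5a7, and 29.4% for Lhx8 and 32.9% for Slc18a3.

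None of the 7 genes differed between genotypes at an adjusted p under 0.05 in the quasi-likelihood test of edgeR, adjusted by Benjamini-Hochberg over all tested genes. Against WT, 0 of 7 passed in KI-96 mice, where 0.027% of all tested genes did, 0 of 7 in KI-571 mice (0.0324%), 0 of 7 in KI-FL mice (0.194%) and 0 of 7 for the mean of the 3 KI genotypes (0.054%). Between KI genotypes, 0 of 7 passed for KI-96 against KI-571 (0.0054%), for KI-96 against KI-FL (0%) and for KI-571 against KI-FL (0.0864%). DESeq2 also called 0 of 7 in each of these 7 comparisons. In every comparison the groups overlapped for all 7 genes, whereas they did not overlap for 1.24%, 1.55% and 5.29% of all tested genes in the KI-96, the KI-571 and the KI-FL comparison with WT, for 0.0108% in that of all KI mice, and for 2.85%, 3.16% and 4.32% between KI-96 and KI-571, KI-96 and KI-FL, and KI-571 and KI-FL. At an unadjusted p under 0.05 there were 4 of 7 members in KI-571 mice against WT, where 7.72% of all genes were, 1 of 7 in KI-FL mice (16.7%) 0 of 7 in KI-96 mice (7.45%) and 1 of 7 for the mean of KI (12.9%). Between KI genotypes there were 0 of 7 for KI-96 against KI-571 (5.51%), 0 of 7 for KI-96 against KI-FL (8.9%) and 3 of 7 for KI-571 against KI-FL (8.9%). DESeq2 gave the same numbers. The 4 genes in KI-571 mice were Chat, Slc17a8, Lhx8 and Ache, and the gene in KI-FL mice was Slc18a3. The median log2 fold change of the 7 genes against WT was 0.073 in KI-96, -0.15 in KI-571 and 0.039 in KI-FL mice, beside medians of -0.015, -0.0089 and -0.028 over all tested genes. 

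**Figure D2:**
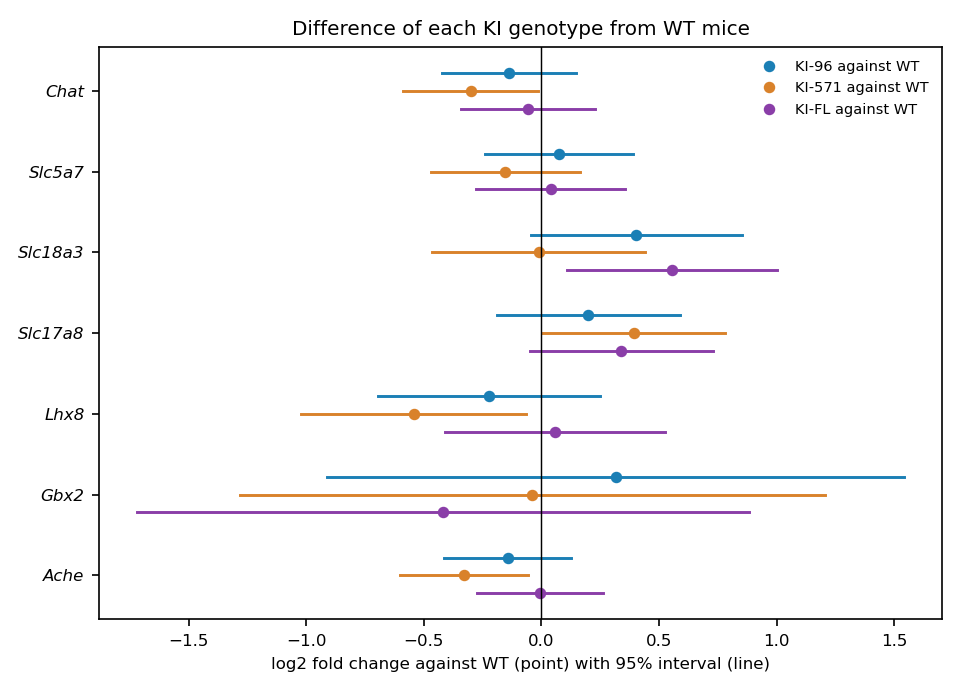
Log2 fold change of each gene against WT in each KI genotype (points) with its 95% interval (lines), from the edgeR model. The intervals of Chat, Lhx8 and Ache lie below 0 in KI-571 mice, that of Slc17a8 lies above 0 in KI-571 mice and that of Slc18a3 above 0 in KI-FL mice, all without adjustment, and the intervals of Gbx2 are the widest.

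The enzyme that makes acetylcholine was counted by 366 to 912 reads per mouse. Chat was at 24.0, 31.9 and 36.0 CPM in the lowest, median and highest WT mouse. It was at 33.2, 31.5, 22.4 and 26.5 CPM in KI-96 replicates 1 to 4, at 17.6, 29.5, 27.3 and 27.0 CPM in KI-571 replicates 1 to 4 and at 33.7, 30.8, 29.0 and 26.6 CPM in KI-FL replicates 1 to 4. The lowest of all mice was KI-571 replicate 1, and the other KI-571 mice lay between the lowest and the median WT mouse. Mean Chat was 25.3 ± 5.29 CPM (SD, n = 4) in KI-571 and 31.2 ± 3.74 CPM (SD, n = 7) in WT mice. The log2 fold change in KI-571 mice was -0.30 (standard error 0.14, 95% interval -0.59 to -0.014, adjusted p = 0.606). It was -0.16 (edgeR adjusted p = 0.999) without KI-571 replicate 1 and -0.36 (edgeR adjusted p = 0.162) without the 3 libraries that stood apart. In KI-96 mice it was -0.14 (standard error 0.14, adjusted p = 0.862) and in KI-FL mice -0.056 (standard error 0.14, adjusted p = 0.857).

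**Figure D3:**
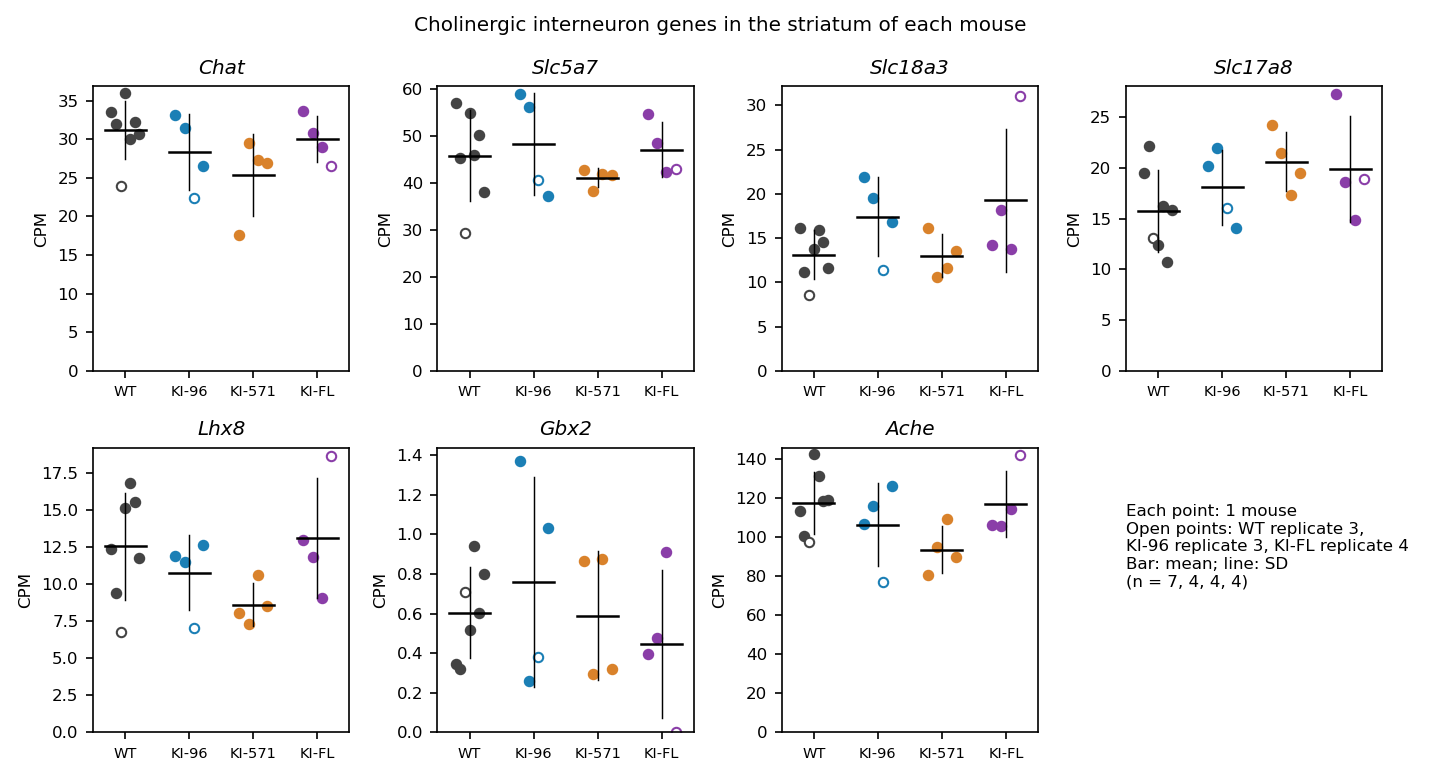
CPM of each of the 7 genes in every mouse by genotype, with a panel per gene, a point per mouse, the mean as a bar and the SD as a line, and WT replicate 3, KI-96 replicate 3 and KI-FL replicate 4 as open points. The genotypes overlap in every panel, and the open KI-FL point is the highest of all mice for Slc18a3 at 31.1 CPM and for Lhx8 at 18.6 CPM.

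The choline transporter gene Slc5a7 (ENSMUSG00000023945.6, chr17:54273590-54299034, minus strand) was counted by 496 to 1418 reads per mouse. It was at 29.3, 45.9 and 57.1 CPM in the lowest, median and highest WT mouse. In KI-96 replicates 1 to 4 Slc5a7 was at 58.9, 56.2, 40.7 and 37.3 CPM, in KI-571 replicates 1 to 4 at 42.7, 38.3, 41.8 and 41.8 CPM, and in KI-FL replicates 1 to 4 at 54.8, 48.5, 42.3 and 42.9 CPM. The 4 KI-571 mice lay close together, inside the range of the WT mice. Its log2 fold change against WT was 0.073 in KI-96 mice (95% interval -0.24 to 0.39, adjusted p = 0.947), -0.15 in KI-571 mice (95% interval -0.47 to 0.16, adjusted p = 0.932) and 0.039 in KI-FL mice (95% interval -0.28 to 0.35, adjusted p = 0.914), by edgeR's test. The directions in KI-96 and KI-FL mice turned when single mice were left out.

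Slc18a3, which fills vesicles with acetylcholine, was counted by 146 to 476 reads per mouse. In WT mice it was at 8.62, 13.8 and 16.1 CPM in the lowest, median and highest mouse. It was at 21.9, 19.6, 11.4 and 16.8 CPM in KI-96 replicates 1 to 4, at 16.1, 10.7, 11.7 and 13.6 CPM in KI-571 replicates 1 to 4 and at 14.3, 18.1, 13.7 and 31.1 CPM in KI-FL replicates 1 to 4. KI-96 replicates 1, 2 and 4 and KI-FL replicates 2 and 4 were above every WT mouse, and KI-571 replicate 1 was level with the highest. The log2 fold change was 0.55 in KI-FL mice (standard error 0.22, adjusted p = 0.205) and 0.22 (standard error 0.20, adjusted p = 0.642) without KI-FL replicate 4, the library in which many genes were at 0. In KI-96 mice it was 0.40 (standard error 0.22, 95% interval -0.044 to 0.85, adjusted p = 0.700) and in KI-571 mice -0.013 (95% interval -0.47 to 0.44, adjusted p = 0.998). Without the 3 libraries that stood apart it was 0.48 in KI-96, -0.094 in KI-571 and 0.14 in KI-FL mice (edgeR adjusted p of 0.295, 0.820 and 0.681). For KI-571 against KI-FL, Slc18a3 had a log2 fold change of -0.57 (adjusted p = 0.513), and of -0.24 (adjusted p = 0.878) without KI-FL replicate 4.

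Because Slc18a3 lies within Chat and both serve the same transmitter, their reads were compared within each mouse, so that library size drops out. In WT mice there were 0.352 to 0.531 Slc18a3 reads per Chat read. KI-96 replicates 1 to 4 had 0.659, 0.622, 0.511 and 0.636, KI-571 replicates 1 to 4 had 0.918, 0.362, 0.428 and 0.504, and KI-FL replicates 1 to 4 had 0.425, 0.589, 0.475 and 1.17. KI-96 replicate 3 was the only KI-96 mouse inside the WT range. The mean log2 ratio was -0.73 ± 0.16 (SD, n = 4) in KI-96 and -1.27 ± 0.23 (SD, n = 7) in WT mice. The difference of 0.54 had a two-sided exact permutation p of 0.00909 over 330 splits, where 0.00303 is the smallest possible, and an adjusted value of 0.0545 over the 6 ratio tests, which misses 0.05. It was 0.59 (exact permutation p = 0.0238, adjusted 0.143) without the 3 libraries that stood apart. That setting leaves fewer mice and fewer splits, so that its smallest possible p is larger. In KI-FL mice the difference was 0.55 (exact permutation p = 0.0394, adjusted 0.118) and 0.24 without KI-FL replicate 4. In KI-571 mice it was 0.32 (exact permutation p = 0.236, adjusted 0.300) and 0.040 without KI-571 replicate 1. The ratio of Slc5a7 to Chat differed from WT by 0.22, 0.19 and 0.11 in the KI-96, the KI-571 and the KI-FL mice on the log2 scale, with exact permutation p of 0.0848, 0.300 and 0.258. Xist was high in 4 of 4 KI-96 mice. Of the other mice with high Xist, WT replicate 1 had 0.482 Slc18a3 reads per Chat read and KI-FL replicate 2 had 0.589.

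**Figure D4:**
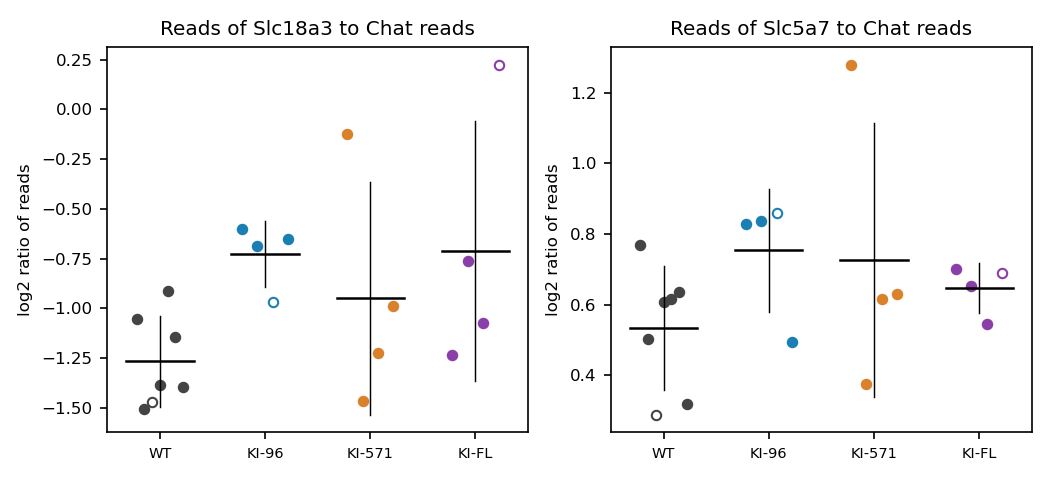
Log2 ratio of Slc18a3 to Chat reads and of Slc5a7 to Chat reads within each mouse by genotype, with a point per mouse, means as bars and SD as lines, and WT replicate 3, KI-96 replicate 3 and KI-FL replicate 4 as open points. The KI-96 mice lie at -0.97 to -0.60 for Slc18a3 to Chat against -1.51 to -0.91 in WT mice, and KI-571 replicate 1 and KI-FL replicate 4 stand above the other mice of their genotype.

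Slc17a8 (ENSMUSG00000019935.16, chr10:89574020-89621253, minus strand), the vesicular glutamate transporter gene, was counted by 222 to 504 reads per mouse. It was at 10.8, 15.9 and 22.1 CPM in the lowest, median and highest WT mouse. In KI-96 replicates 1 to 4 it was at 20.2, 21.98, 16.0 and 14.1 CPM, in KI-571 replicates 1 to 4 at 24.2, 21.4, 17.3 and 19.5 CPM, and in KI-FL replicates 1 to 4 at 27.2, 18.6, 14.8 and 18.9 CPM. KI-571 replicate 1 and KI-FL replicate 1 were above every WT mouse, and all 4 KI-571 mice were above the WT median. The log2 fold change was 0.39 in KI-571 mice (standard error 0.19, 95% interval 0.0078 to 0.78, adjusted p = 0.631), 0.20 in KI-96 mice (adjusted p = 0.853) and 0.34 in KI-FL mice (adjusted p = 0.365). For the mean of the KI genotypes it was 0.31 (standard error 0.14, adjusted p = 0.373).

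The breakdown enzyme gene Ache was the most highly counted member, with 1338 to 3349 reads per mouse, and 2.12% of its exon bases overlap a noncoding gene on the other strand. It was at 97.3, 118.6 and 142.6 CPM in the lowest, median and highest WT mouse. In KI-96 replicates 1 to 4 it was at 106.8, 116, 76.8 and 126.1 CPM, in KI-571 replicates 1 to 4 at 80.7, 94.7, 109.2 and 89.9 CPM, and in KI-FL replicates 1 to 4 at 106.3, 105.9, 114.4 and 141.8 CPM. KI-571 replicates 1, 2 and 4 and KI-96 replicate 3 were below every WT mouse. Mean Ache was 93.6 ± 11.9 CPM (SD, n = 4) in KI-571 and 117.6 ± 15.9 CPM (SD, n = 7) in WT mice. The log2 fold change in KI-571 mice was -0.33 (standard error 0.13, 95% interval -0.60 to -0.059, adjusted p = 0.498), and it was -0.37 (adjusted p = 0.0795) without the 3 libraries that stood apart. In KI-96 mice it was -0.14 (standard error 0.13, adjusted p = 0.844) and in KI-FL mice -0.0055 (standard error 0.13, adjusted p = 0.989). Set against KI-FL, the KI-571 mice differed in Ache by -0.32 on the log2 scale (adjusted p = 0.532).

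Lhx8, a LIM homeodomain factor of cholinergic neurons, was counted by 115 to 439 reads per mouse. It was at 6.79, 12.4 and 16.8 CPM in the lowest, median and highest WT mouse. In KI-96 replicates 1 to 4 it was at 11.9, 11.5, 7.05 and 12.6 CPM, in KI-571 replicates 1 to 4 at 8.02, 7.32, 10.6 and 8.49 CPM, and in KI-FL replicates 1 to 4 at 12.9, 11.8, 9.05 and 18.6 CPM. All 4 KI-571 mice were below the WT median, but above WT replicate 3. The log2 fold change in KI-571 mice was -0.54 (standard error 0.23, 95% interval -1.02 to -0.064, adjusted p = 0.554), and without the 3 libraries that stood apart it was -0.65 (standard error 0.16, adjusted p = 0.0696), the smallest adjusted p of any member in any of 1405 alternative values. Against WT replicates 1 to 4 alone it was -0.34, against WT replicates 5 to 7 alone -0.77 (adjusted p = 0.309), and -0.26 in the replicate block fit. In KI-96 mice it was -0.22 (standard error 0.23, adjusted p = 0.866) and in KI-FL mice 0.059 (standard error 0.23, adjusted p = 0.912), which turned to -0.16 without KI-FL replicate 4. For Lhx8 the log2 fold change of KI-571 against KI-FL was -0.60 (adjusted p = 0.506), and it was -0.38 without KI-FL replicate 4. Blood markers, 6 genes of red cells, summed to 163 to 485 CPM in KI-571 against 79.6 to 214 CPM in WT mice, and 2 of the 5 tested passed the threshold. The choroid plexus markers, 5 genes of which 0 passed, were at 198, 5080, 45.1 and 5312 CPM in KI-571 replicates 1 to 4. They reached 3013 CPM in KI-FL replicate 1 and at most 406 CPM in WT mice. Cortical markers summed to 410 CPM in KI-571 replicate 2. No KI-571 library is among the 3 that were left out as standing apart. Markers of pallidum and septum, 6 genes of which 0 passed, summed to 106 to 159 CPM in KI-571 and 94.6 to 196 CPM in WT mice. By their estimates 5 of these 6 were lower in KI-571 mice, where 51.7% of all tested genes were. The median log2 fold change of the 6 was -0.25. Nkx2-1 and Lhx6 are in this list and also among the identity genes of cholinergic neurons counted below. The part of any of these lists in the KI-571 values was not tested.

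Gbx2 (ENSMUSG00000034486.8, chr1:89927956-89931179, minus strand), a homeodomain factor, was near the limit of detection in the adult striatum. There were 6, 12 and 23 reads in the lowest, median and highest WT mouse, 4 to 25 in KI-96, 5 to 18 in KI-571 and 0 to 18 in KI-FL mice. The mouse at 0 reads was KI-FL replicate 4, where a count of 0 allows up to 0.196 CPM. Its exons overlap a transcript on the other strand, D130058E05Rik, over 946 bases or 43.5% of their length, and the strand setting of the counting is not stated, so that reads of the pair cannot be told apart. The log2 fold change of Gbx2 against WT was 0.31 in KI-96 (95% interval -0.91 to 1.54, adjusted p = 0.940), -0.039 in KI-571 (95% interval -1.28 to 1.205, adjusted p = 0.998) and -0.42 in KI-FL mice (95% interval -1.72 to 0.88, adjusted p = 0.758). Differences within these intervals were not detectable at this depth. Gbx2 is also a marker of thalamus, and 6 thalamic markers that include it summed to 20.6 to 236 CPM over the 19 mice.

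Some of the members varied together from mouse to mouse. Over the 21 pairs of members and 19 mice, log2 CPM of Lhx8 and Ache had the largest correlation, with Pearson's r of 0.860 (permutation p = 2e-05 over 100000 permutations, adjusted over the 21 pairs 0.00042) and Spearman's rho of 0.816 (permutation p = 4e-05). Without the 2 mice farthest from the median of Lhx8, WT replicate 3 and KI-96 replicate 3, r was 0.852. With the genotype means removed it was 0.812, and within the 7 WT mice it was 0.873. Both genes are on different chromosomes and share no reads. Each KI genotype has only 4 mice, too few for a value of its own.

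Chat and Slc5a7 had r of 0.606 (permutation p = 0.00620, adjusted 0.0325) and rho of 0.777 (permutation p = 0.00013), and r was 0.854 without KI-96 replicate 3 and KI-571 replicate 1 and 0.928 within the WT mice. In KI-571 replicate 1 Chat was the lowest of all mice while Slc5a7 was the highest of its genotype. Without the 3 libraries that stood apart, r of this pair was 0.543 (adjusted permutation p = 0.0783). Chat and Ache had r of 0.602 (permutation p = 0.00605, adjusted 0.0325), but rho was 0.370 (permutation p = 0.120). Without KI-96 replicate 3 and KI-571 replicate 1 r was 0.219, so that its size over the 19 mice depends on them. Within the 7 WT mice, which include neither, r was 0.644. Slc18a3 and Lhx8 had r of 0.660 (permutation p = 0.00195, adjusted 0.0205) and rho of 0.623 (permutation p = 0.00525), and r was 0.439 without WT replicate 3 and KI-FL replicate 4. For Chat and Slc18a3, the pair that shares a locus, r was 0.116 (permutation p = 0.629) and rho 0.177 (permutation p = 0.467) over the 19 mice, and r was 0.727 within the 7 WT mice. The other pairs did not pass 0.05 after adjustment of r. Correlations here are between genes of the same libraries, which share cell makeup and scaling.

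**Figure D5:**
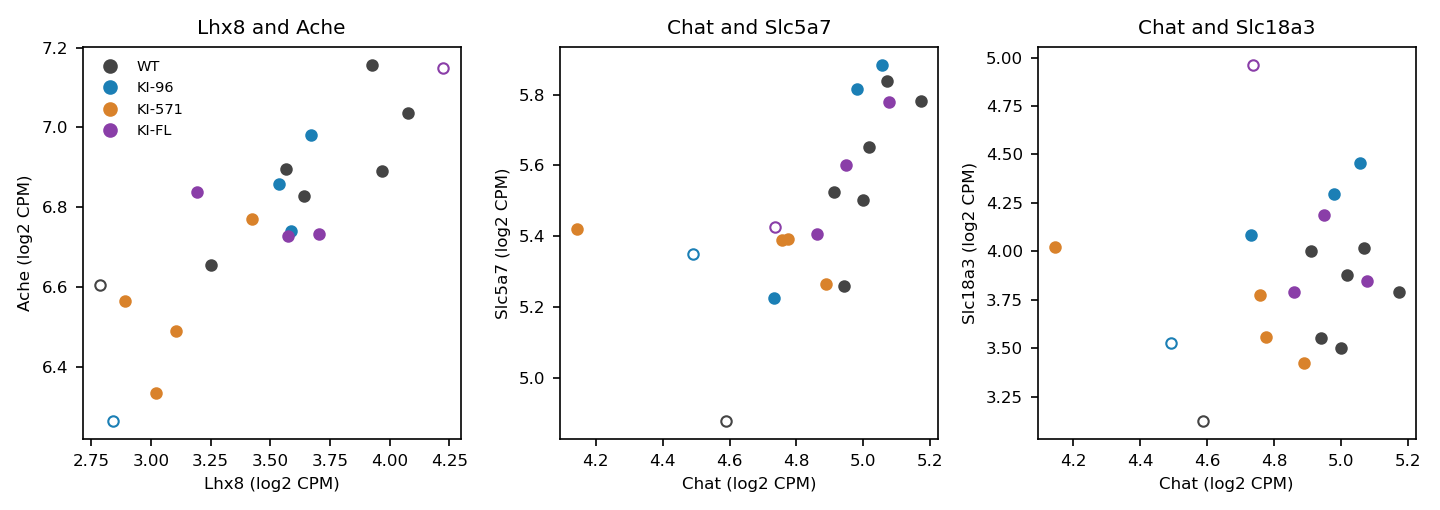
Log2 CPM of Lhx8 and Ache, of Chat and Slc5a7 and of Chat and Slc18a3 with a point per mouse, coloured by genotype, and WT replicate 3, KI-96 replicate 3 and KI-FL replicate 4 as open points. Lhx8 and Ache follow each other over the 19 mice (r = 0.860), Chat and Slc5a7 do so except in KI-571 replicate 1 at the far left, and Chat and Slc18a3 are scattered (r = 0.116).

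By the number of members in which a mouse was among the 3 lowest, the low mice were not of a single genotype. WT replicate 3 was among the 3 lowest of 19 mice in 5 of the 6 well counted genes, KI-96 replicate 3 in 3, and KI-571 replicates 1 and 2 in 2 each. KI-FL replicate 4 was among the 3 highest in 3. The summed level of all 7 genes was 180 to 275 CPM in WT, 175 to 257 in KI-96, 190 to 219 in KI-571 and 224 to 280 in KI-FL mice. In this sum, to which Ache adds most, KI-571 replicates 1 to 4 stood at ranks 3, 5, 6 and 4 of 19 from the lowest. Only KI-96 replicate 3 and WT replicate 3, libraries that stood apart, were lower. WT replicate 3 also had the most cortical marker RNA, and its part in these values was not tested.

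The genes most like Chat, by r of log2 CPM over the 19 mice with genotype means removed, were Slc1a3, 2410131K14Rik, Patl1, Sugct, Hacd3, Arpc1b, Magoh, Etfa, Gm20257 and Kcnk5, with r from 0.802 to 0.753. Slc1a3 encodes the glial glutamate transporter GLAST, a marker of astrocytes. Slc5a7 stood at rank 185 of the 18520 other tested genes by this measure, with r of 0.619, and Slc18a3 at rank 7868, with r of 0.117. The most alike gene of so many is chosen for its size, and no p is given.

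Genes that surround cholinergic signalling were counted as lists. Of 11 further identity genes of cholinergic neurons, 10 tested genes of choline and acetylcholine handling, 5 muscarinic receptors, 10 tested nicotinic subunits and 9 partners of these receptors, 0 passed an adjusted p of 0.05 in any comparison by edgeR over all 19 mice. At an unadjusted p under 0.05 in KI-FL mice against WT there were 2 of 11, 2 of 10, 0 of 5, 2 of 10 and 2 of 9, where 16.7% of all tested genes were. In KI-571 mice there were 1 of 11, 1 of 10, 1 of 5, 1 of 10 and 0 of 9, where 7.72% were, and in KI-96 mice 0 in each list, where 7.45% were. By their estimates 2 of 11 identity genes were lower than in WT in KI-96 mice, 7 of 11 in KI-571 mice and 6 of 11 in KI-FL mice, with median log2 fold changes of 0.043, -0.13 and -0.024. Of all tested genes 52.8%, 51.7% and 53.9% were lower in these comparisons. Where the fold change of a list gene is given below, it is for 1 KI genotype, which differs from gene to gene. Its fold changes in the other genotypes and for the mean of KI are not given.

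Ecel1, an endopeptidase of cholinergic neurons, had the highest mean RPKM of the identity genes, at 18.04, and in CPM it was at 62.2 ± 11.0 CPM (SD, n = 7) in WT, 67.4 ± 11.2 in KI-96, 54.3 ± 7.39 in KI-571 and 69.2 ± 8.77 in KI-FL mice. Slc10a4, a vesicular transporter of cholinergic neurons, was at 18.2 ± 3.36 CPM (SD, n = 7) in WT and 17.9 to 21.3 CPM on average in the KI genotypes. Etv1, a transcription factor, had a log2 fold change of -0.34 in KI-571 mice (standard error 0.12, adjusted p = 0.369). Gfra2, the neurturin receptor, had -1.05 in KI-FL mice (standard error 0.46, adjusted p = 0.260), with WT mice spread from 5.56 to 48.6 CPM, and -0.49 (adjusted p = 0.461) without WT replicate 3.

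In the handling list, Chpt1, a choline phosphotransferase of phosphatidylcholine synthesis, came nearest to the threshold. It was at 35.6 to 52.4 CPM in the KI-FL mice and 55.7 to 77.1 CPM in the WT mice, which did not overlap, as for 5.29% of all tested genes. This gave a log2 fold change of -0.58 with a standard error of 0.12 (edgeR adjusted p = 0.0508). It passed the threshold without WT replicate 3, at -0.64 (adjusted p = 0.0316), and without the 3 libraries that stood apart, at -0.70 (adjusted p = 0.0157). Bche, the second cholinesterase, had -0.67 in KI-FL mice (standard error 0.24, adjusted p = 0.170), and passed without those 3 libraries, at -1.04 (standard error 0.21, adjusted p = 0.0258). Acly, which makes cytosolic acetyl-CoA, was at 291 ± 22.1 CPM (SD, n = 7) in WT and 266 to 308 CPM on average in the KI genotypes, and Prima1, the membrane anchor of acetylcholinesterase, at 22.8 ± 2.44 CPM in WT and 19.6 to 21.5 CPM on average in the KI genotypes.

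The muscarinic receptors Chrm4 and Chrm1, which projection neurons carry, had the highest mean RPKM of their list, at 43.3 and 23.8. Chrm4 had a log2 fold change of 0.31 in KI-FL mice (standard error 0.15, adjusted p = 0.314), Chrm1 of 0.17 (adjusted p = 0.528), and Chrm2, an autoreceptor of cholinergic neurons, of -0.39 in KI-571 mice (standard error 0.16, adjusted p = 0.518). Of the nicotinic subunits, Chrnb2 was highest at 7.62 RPKM, and its log2 fold change in KI-FL mice was 0.31 (standard error 0.096, adjusted p = 0.134). Chrna4, its usual partner, had -0.48 in KI-FL mice (adjusted p = 0.388), and Chrnb4, at 0.372 CPM on average in WT mice, 1.57 in KI-571 mice (adjusted p = 0.578). Without the 3 libraries that stood apart, the KI-FL values were 0.16 for Chrm4, 0.31 for Chrm1, 0.20 for Chrnb2 and -0.14 for Chrna4, with adjusted p of 0.631, 0.230, 0.291 and 0.825. Among the partners, Rgs4, a regulator of G-protein signalling, had -0.21 in KI-FL mice (adjusted p = 0.537), Gnao1, a G-protein subunit, 0.19 in KI-96 mice (adjusted p = 0.704), and Lypd6, which binds nicotinic receptors, -0.48 in KI-FL mice (adjusted p = 0.197).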

How the data were processed

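RNA of the striatum was measured by RNA sequencing in 19 mice, and the genotype and replicate number were taken from the labels. Raw counts of reads per gene, without normalization, are what the authors deposited. Per the labels and the methods of the study, adapters were trimmed with BBduk, reads were aligned to GRCm38 with STAR and counted with HTSeq, and the tool versions, the gene models and whether strand was used in counting are not given in the sources used here. The table holds 4 columns of none of these samples, which were not used, and 5 summary lines, which were kept out of library sizes and tests; reads on no gene were 11.1% to 24.2% of each library. Of 54232 gene identifiers 54165 were matched to names. Exons, lengths and overlaps came from GENCODE mouse release M21 on GRCm38, and promoter windows from RefSeq.

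Counts were normalized by TMM, filtered with filterByExpr (minimum count 10, minimum total 15) and fitted with 1 coefficient per genotype over all 19 mice (edgeR 4.0.16, R 4.3.3). The quasi-likelihood F-test was used with Benjamini-Hochberg adjustment over the 18521 tested genes, and p under 0.05 was the threshold. The labels give neither the sacrifice batch of the study's model nor which WT sample was removed, so that neither step was applied. The biological coefficient of variation was 0.240. Log2 CPM used a prior count of 2. Ratios of reads used 0.5 added reads and exact permutation tests, and correlations used 100000 permutations (scipy 1.17.1). Depth was 12669809 to 26388542 reads on genes, and a floor of 3 counts covers counting error only. The labels do not say more of how replicates arose than that each is a mouse library, so that p-values measure the spread between these libraries. The fit was tested on simulated counts.

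The members and lists were chosen with earlier results of these data known. Named were all members, of each surrounding list the 2 genes with the highest level and the 2 with the smallest p for the mean of KI against WT, and the 10 genes most like Chat. Alternatives were DESeq2 1.42.0, its size factors, other filters, only the groups compared, Xist as a covariate, parts of the WT mice, each mouse left out, and the replicate number as a block.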

Additional observations from a re-analysis of the deposited data

Results flagged for a closer look

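Of 36 groups of 4 to 7 mice that were searched for a mouse far from the others, 2 had such a mouse, where chance gives about 1 in 20 groups, or 1.8. Lhx8 was at 2.84 log2 CPM in KI-96 replicate 3, where the other KI-96 mice were at 3.54 to 3.67. This is the library with 24.2% of reads on no gene, and it was also the lowest KI-96 mouse for Chat, Slc18a3 and Ache. The log2 ratio of Slc5a7 to Chat reads was 0.49 in KI-96 replicate 4, where the other KI-96 mice were at 0.83 to 0.86, and this mouse had the lowest Slc5a7 of its genotype and the most thalamic marker RNA of all mice, at 236 CPM. The part of these library values in either result was not tested.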

How the results depend on the processing

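None of the 7 genes passed an adjusted p of 0.05 in any comparison under any of 1405 alternative values, of which 1333 kept the direction of the main value and 72 turned it. The smallest adjusted p was 0.0696. Adjusted p-values over so few mice say little of stability, and depth limits Gbx2 most. The number of all genes that passed moved more. With DESeq2 it was 33 for KI-96, 117 for KI-571, 596 for KI-FL and 303 for the mean of KI, each against WT, and 36 for KI-96 against KI-571, 52 for KI-96 against KI-FL and 114 for KI-571 against KI-FL. In the same order it was 23, 78, 85, 140, 35, 24 and 25 when no gene was filtered out. Keeping genes that reached 10 reads in each mouse, it was 0, 3 and 55 for the KI genotypes against WT and 0 for KI-96 against KI-571. With only the groups compared it was 0, 55 and 336 against WT, 9 for KI-96 against KI-571 and 2 for KI-96 against KI-FL. With Xist as a covariate it was 0 for KI-96, KI-FL and the mean of KI against WT and for KI-96 against KI-571. Against WT replicates 1 to 4 alone it was 0 in all 4 comparisons with WT, 2 for KI-96 against KI-571 and 10 for KI-571 against KI-FL. Against WT replicates 5 to 7 alone it was 28 for KI-96, 18 for KI-571 and 49 for the mean of KI, 8 for KI-96 against KI-571 and 15 for KI-96 against KI-FL. Without WT replicate 3, KI-96 replicate 3 and KI-FL replicate 4 together, a setting chosen after seeing the data, it was 2, 111, 161 and 468 against WT and 0 for KI-96 against KI-571. With a mouse left out in turn it ranged from 1 to 10 for KI-96, 0 to 46 for KI-571, 0 to 159 for KI-FL and 3 to 173 for the mean of KI against WT, and from 0 to 5, 0 to 9 and 1 to 21 between KI-96 and KI-571, KI-96 and KI-FL, and KI-571 and KI-FL. The highest counts were without WT replicate 1 for KI-96, KI-571 replicate 3 for KI-571, and KI-96 replicate 3 for KI-FL and for the mean of KI. The count between KI-571 and KI-FL was 1 without KI-FL replicate 4. The cause was not tested.

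Log2 fold changes of members that turned were near 0 in most cases. With Xist as a covariate they were -0.061 for Slc5a7 in KI-96 against WT, -0.075 for Slc5a7 in KI-96 against KI-FL, 0.17 for Gbx2 in the mean of KI and 0.015 for Ache in KI-FL. Without the 3 libraries they were -0.011 for Slc5a7, -0.27 for Lhx8 and 0.016 for Gbx2 in KI-FL against WT, 0.19 for Gbx2 in the mean of KI and -0.028 for Gbx2 in KI-571 against KI-FL, and in KI-96 against KI-FL 0.34 for Slc18a3 and 0.10 for both Lhx8 and Ache. With WT replicates 5 to 7 alone they were 0.019 for Slc5a7 in the mean of KI, -0.17 for Lhx8 in KI-FL and -0.038 for Gbx2 in KI-96. With WT replicates 1 to 4 alone they were 0.069 for Slc18a3 and 0.32 for Gbx2 in KI-571, 0.31 for Gbx2 in the mean of KI and 0.036 for Ache in KI-FL. With a mouse left out, the value ranged from -0.038 to 0.18 for Slc5a7 in KI-96, -0.055 to 0.090 in KI-FL and -0.10 to 0.043 in the mean of KI against WT, and from -0.076 to 0.14 in KI-96 against KI-FL. It ranged from -0.16 to 0.026 for Chat, -0.28 to 0.18 for Slc18a3, -0.25 to 0.059 for Slc17a8 and -0.23 to 0.0025 for Ache in KI-96 against KI-FL. Against WT it ranged from -0.14 to 0.071 for Slc18a3 in KI-571, -0.16 to 0.19 for Lhx8 in KI-FL and -0.11 to 0.039 for Ache in KI-FL. For Slc17a8 in KI-571 against KI-FL it ranged from -0.056 to 0.26. For Gbx2 it ranged from -0.092 to 0.59 in KI-96, -0.29 to 0.17 in KI-571 and -0.27 to 0.088 in the mean of KI against WT, from -0.052 to 0.63 in KI-96 against KI-571 and from -0.029 to 1.05 in KI-571 against KI-FL.

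The difference in the log2 ratio of Slc18a3 to Chat between KI-96 and WT mice ranged from 0.50 to 0.62 with a mouse left out, and its adjusted exact permutation p was 0.0286 without WT replicate 5 and 0.143 without the 3 libraries. Without KI-FL replicate 4, r was 0.655 for Chat with Lhx8, 0.724 for Slc5a7 with Slc18a3 and 0.626 for Slc5a7 with Lhx8, which then passed, 0.555 for Slc18a3 with Lhx8, which then did not, and 0.208, 0.225 and 0.270 for Gbx2 with Slc18a3, Lhx8 and Ache, which turned. Without the 3 libraries, r was 0.543 for Chat with Slc5a7, 0.624 for Chat with Ache and 0.361 for Slc18a3 with Lhx8, which no longer passed, -0.682 for Slc17a8 with Ache, which then passed, and 0.269, 0.240 and 0.226 for Gbx2 with Slc18a3, Lhx8 and Ache.

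By the median, same-numbered mice of different genotypes were about as alike as other pairs, which does not exclude that some are paired. Over 24 pairs of same-numbered mice the correlation of deviations had a median of -0.0048, beside -0.0049 over 108 other pairs. Of the same-numbered pairs 5 were above 0.1, the highest at 0.29. Of 16 mice numbered 1 to 4, 6 correlated best with their own number. With the replicate block, 0, 1, 0 and 0 genes passed for KI-96, KI-571, KI-FL and the mean of KI against WT, and 0, 1 and 9 for KI-96 against KI-571, KI-96 against KI-FL and KI-571 against KI-FL. With the block, log2 fold changes that turned were 0.094 for Slc18a3 and 0.21 for Gbx2 in KI-571, 0.00069 for Lhx8 in KI-96, 0.0011 for Lhx8 and 0.24 for Gbx2 in the mean of KI, and 0.048 for Ache in KI-FL.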

Other observations

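For 4 members other than Chat the most alike genes, by r of log2 CPM over the 19 mice with genotype means removed, were read after their values were seen, and no p is given. Those of Lhx8 included Nkx2-1, a homeodomain factor of the ventral forebrain lineage (rank 4, r = 0.852), and Ecel1 (rank 6, r = 0.846). Those of Slc5a7 included Slc10a4 (rank 4, r = 0.775) and Acly (rank 8, r = 0.732), with Tgoln1 first at 0.915. Ache was most like Pnck (r = 0.891), and Nkx6-2, a transcription factor of oligodendrocytes, stood at rank 3 with 0.883. Slc18a3 was most like Smtnl2 (r = 0.873), which stood at rank 5 for Lhx8 with 0.851.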
